A study of Mus musculus with 2 samples.

Results

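The Zic genes encode zinc finger transcription factors, and 4 of them, Zic1, Zic2, Zic4 and Zic5, were taken by gene symbol, regardless of their values, from the 43346 Ensembl gene rows of RNA-seq tables of the embryonic midbrain. All 4 were detected, with at least 1 TPM in both libraries, as were 12477 of 21474 protein-coding genes. TPM, the unit used throughout, is a length-corrected share of all transcripts in a library. The embryos were B6NCrl mice of embryonic day 10.5, for which the labels name no mutation, no treatment and no control group. Replicate 1 was a pool of 69 embryos and replicate 2 a pool of 51 embryos, each of both sexes, so variation between embryos is averaged within a library. With a single group of 2 libraries, every SD has n = 2 and no exact test over samples could reach a p of 0.05.

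Zic proteins carry tandem C2H2 zinc fingers related to those of the Gli factors, through which Hedgehog signals are read, and the family is the vertebrate counterpart of odd-paired in Drosophila. In the mouse embryo Zic RNAs are best known from the dorsal neural tube and roof plate, and also from the neural plate border, somites and the mesenchyme around the brain. The genes are arranged in neighbouring pairs transcribed away from each other: Zic1 with Zic4 on mouse chromosome 9, and Zic2 with Zic5 on chromosome 14. Joint loss of human ZIC1 and ZIC4 has been linked to Dandy-Walker malformation of the cerebellum, and human ZIC2 mutations cause holoprosencephaly. In mouse, loss of Zic5 impairs neural tube closure and neural crest formation.

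The gene tables held 45531621 expected counts in replicate 1 and 50477634 in replicate 2, and spike-ins took a further 3.39% and 3.28% of all counts. Of 11 midbrain identity genes 10 were detected, with Otx2 at 138 and 123 TPM and En1 at 4.74 and 4.46 TPM in replicates 1 and 2, while En2, at 0.92 and 0.71 TPM, was not. Of 9 forebrain and eye genes 5 were detected, with Lhx2 at 24.5 and 19.9 TPM. Of 9 Hox and hindbrain genes 1 was detected, and Hoxa3 and Hoxb3 were listed at 0 in both libraries. Of 14 genes of mesenchyme and meninges 14 were detected, with summed levels of 859 and 622 TPM, and of 9 somite genes 2 were detected, with summed levels of 6.27 and 8.09 TPM. Both tissues can transcribe Zic genes elsewhere in the embryo, and their part in the levels given here was not tested. In such bulk tissue, fewer cells of a type and less RNA per cell cannot be told apart.

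Zic4 was the most abundant of the 4 genes by TPM, Zic5 was intermediate, and Zic1 and Zic2 were low and close to each other. Zic4, a gene known in mouse from cerebellar growth alongside Zic1, had 28.2 TPM in replicate 1 and 21.2 TPM in replicate 2 (24.8 ± 4.9, SD). Its credible intervals, 26.5 to 30.5 TPM and 20.1 to 23.0 TPM, did not overlap, so the libraries differed in Zic4 by more than the estimation error. Zic5 had 11.5 and 13.1 TPM (12.3 ± 1.1, SD), with credible intervals of 9.88 to 12.8 TPM and 11.4 to 14.4 TPM. These overlapped, and both lay below the Zic4 values of either library.

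Zic1, known in mouse for keeping dorsal neural precursors dividing, had 5.57 TPM in replicate 1 and 5.55 TPM in replicate 2 (5.56 ± 0.014, SD). Its credible intervals, 5.22 to 6.13 TPM and 5.25 to 6.16 TPM, were nearly the same in both libraries. Zic2, the holoprosencephaly gene, had 5.40 and 4.83 TPM (5.12 ± 0.40, SD), with credible intervals of 4.78 to 5.97 TPM and 4.29 to 5.34 TPM. Zic1 was 1.03 times Zic2 in replicate 1 and 1.15 times in replicate 2, and their credible intervals overlapped in both, so these neighbours in the order were not told apart. The other neighbouring steps were larger than the credible intervals in each library: Zic4 was 2.45 and 1.63 times Zic5, and Zic5 was 2.07 and 2.35 times Zic1. Among the detected protein-coding genes, 54.9% had a lower mean TPM than Zic4, 36.7% than Zic5, 20.3% than Zic1 and 18.9% than Zic2. The median of detected protein-coding genes was 20.7 TPM, so among them Zic4 stood a little above the middle and the others below it. Over all protein-coding genes, detected or not, the median was 3.73 TPM and all 4 stood above it, with 73.8% of genes below Zic4, 63.2% below Zic5, 53.7% below Zic1 and 52.9% below Zic2.

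**Figure D1:**
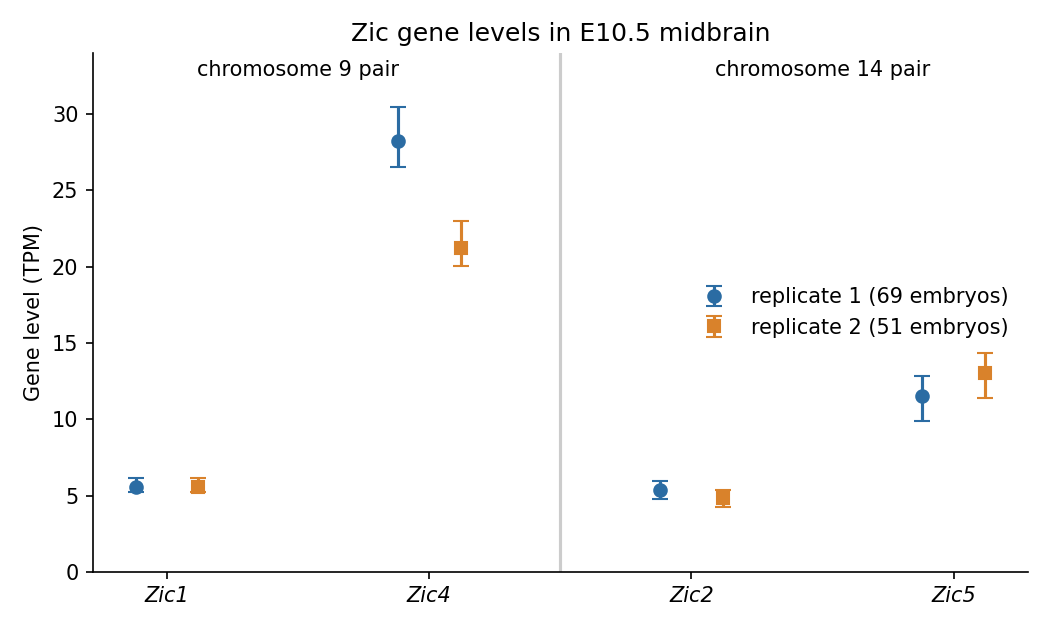
Gene level in TPM of Zic1, Zic4, Zic2 and Zic5 (horizontal axis) in replicate 1 (circles) and replicate 2 (squares), with bars for the deposited credible bounds. Zic4 sat between 21.2 and 28.2 TPM, above the other 3 genes in both libraries, and Zic1 and Zic2 lay together near 5 TPM.

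The order by reads was the same as by TPM, but Zic1 and Zic2 stood apart. Zic4 had 1952 and 1745 expected counts, Zic5 had 1078 and 1334, Zic1 had 900 and 1027, and Zic2 had 355 and 362. Counts are not corrected for length. The main transcript of Zic1, of 5606 nt, gave more reads per TPM than the 2440-nt main transcript of Zic2. Sequence shared with other genes was limited. In transcripts of the annotation, no stretch of 100 nt of Zic1 or Zic2 occurred in any other gene, on either strand. For Zic4, 3.55% of 10385 such stretches were shared, all with Gm37477, and for Zic5 1.90% of 4790 were shared, all with Gm12241, so no such stretch was shared between Zic genes. The deposited posterior SD of the count was 0 for Zic1 and Zic2, at most 0.81 for Zic5, and 6.42 and 5.79 for Zic4.

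Which partner of each pair is higher was the question for the paired loci, and in both the partner was the same in both libraries. Zic1, at chr9:91358058-91365810 on the minus strand, reached 0.197 of the TPM of Zic4 in replicate 1 and 0.261 in replicate 2 (0.229 ± 0.045, SD). Zic4, at chr9:91362413-91389348 on the plus strand, was therefore 5.07 and 3.83 times Zic1. Taking the credible bounds at their extremes, the ratio lay between 0.171 and 0.231 in replicate 1 and between 0.228 and 0.307 in replicate 2, always below 1. Zic2, at chr14:122475435-122479852 on the plus strand, reached 0.469 and 0.370 of the TPM of Zic5 (0.420 ± 0.070, SD). Zic5, at chr14:122456795-122465677 on the minus strand, was 2.13 and 2.70 times Zic2, and the extreme ratios of 0.298 and 0.604 stayed below 1.

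The pair of chromosome 9 was thus the more unequal by gene TPM, although in replicate 2 the ranges that the credible bounds allow overlapped, 0.228 to 0.307 against 0.298 to 0.470. The log2 ratio of Zic1 to Zic4 minus that of Zic2 to Zic5 was -1.25 in replicate 1 and -0.50 in replicate 2 (-0.88 ± 0.53, SD). The ratios moved in opposite directions between the libraries, Zic1 to Zic4 being higher in replicate 2 and Zic2 to Zic5 higher in replicate 1. Summed over the partners, Zic1 and Zic4 had 33.8 and 26.8 TPM, against 16.9 and 17.9 TPM for Zic2 and Zic5. The log2 ratio of these sums was 1.00 and 0.58 (0.79 ± 0.29, SD), so the chromosome 9 pair gave the larger sum in each library.

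Gene TPM adds up all annotated transcripts of a gene, and the transcript tables show which of them carried it. The 4 genes have 19 annotated transcripts, of which 10 are protein-coding, 13 had counts in both libraries and 3 (Zic1-202, Zic1-203 and Zic4-204) were listed at 0 in both. Zic1 was assigned entirely to Zic1-201 in both libraries. Zic2-201, of 2440 nt, took 93.6% ± 0.33 of Zic2 TPM, and Zic2-202, a retained-intron transcript of 765 nt, took the other 6.41%. Shares are estimates of the quantification, which splits reads among overlapping transcripts.

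Zic4 was spread over 12 annotated transcripts, and its protein-coding ones were the smaller part by TPM. By expected counts the split was near even, with 49.2 and 48.8% on protein-coding transcripts in replicates 1 and 2. Zic4-201, a protein-coding transcript of 3891 nt, had 8.05 and 6.32 TPM (29.1% ± 0.88 of Zic4 TPM), and 45.9 and 46.1% of the Zic4 counts. Zic4-211, a retained-intron transcript of 2620 nt, had 6.65 and 5.28 TPM (24.2% ± 0.91). The order of these main forms was the same in both libraries. Zic4-202, a processed transcript (one annotated without an open reading frame), had 4.83 and 2.61 TPM, and Zic4-205, which retains an intron, had 1.47 and 2.48 TPM. These differed in opposite directions between the libraries, and their credible intervals of 3.14 to 6.03 TPM and 1.29 to 3.59 TPM for Zic4-202 overlapped. Zic4-207 had 1.58 TPM in replicate 1 and was listed at 0 in replicate 2.

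Transcripts not annotated as protein-coding took 62.2 and 65.7% of Zic4 TPM (63.9% ± 2.5, SD), but 50.8 and 51.2% of its counts. Of 12477 detected protein-coding genes, 95.8% had a lower mean share of TPM on such transcripts. The median of this TPM share over them was 1.73%. In Zic5 the share was 36.4 and 40.0% (38.2% ± 2.5, SD), above that of 87.8% of those genes. All of it was Zic5-202, a processed transcript of 705 nt with 4.19 and 5.22 TPM. Its counts were few, 74.5 and 106 of the Zic5 total, or 6.91 and 7.96%, whereas Zic5-201, the protein-coding transcript of 4767 nt, took 93.1 and 92.0%. Zic5-202 lies inside the gene, with its first base 5656 bp downstream of that of Zic5-201. A short transcript turns few reads into a large share of TPM, and this share of Zic5 rested on about 7% of its reads.

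**Figure D2:**
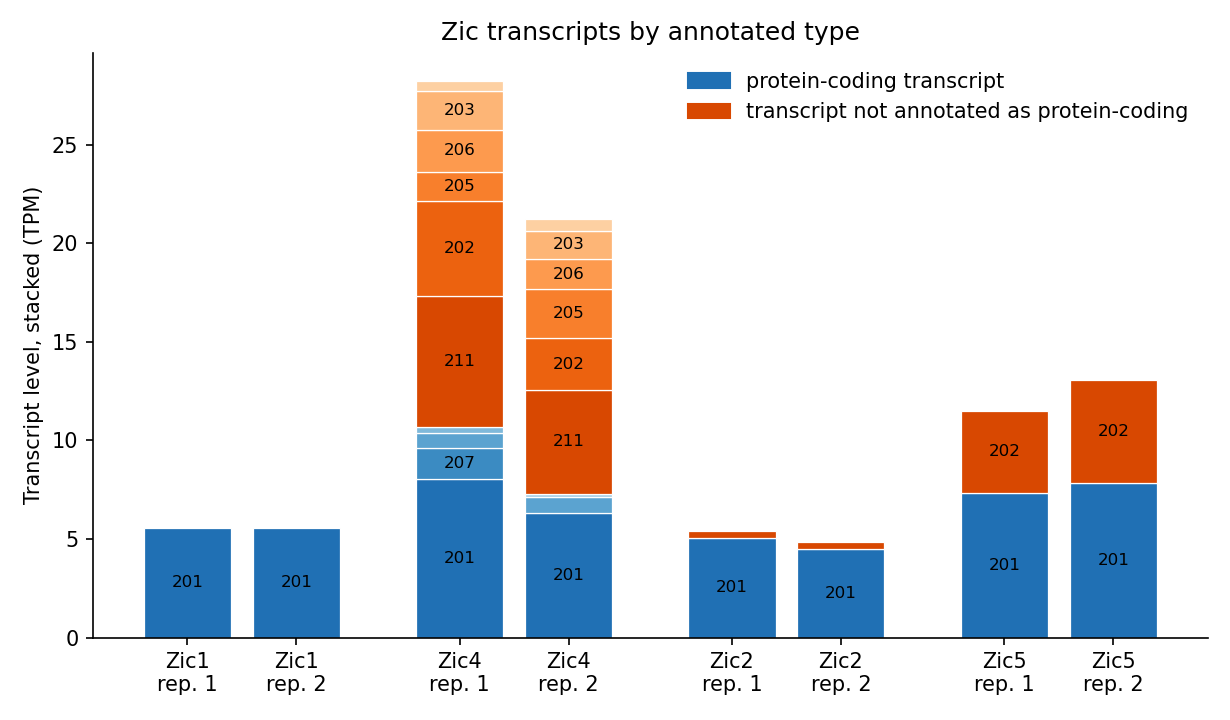
Transcript TPM stacked per gene and library, with protein-coding transcripts in blue and all other transcripts in orange, and numbers giving the transcript suffix of segments of at least 1.4 TPM. The orange part was 62.2 and 65.7% of Zic4 and 36.4 and 40.0% of Zic5, and absent from Zic1.

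Counting protein-coding transcripts only, the levels of the 4 genes came closer together. Zic4 then had 10.7 and 7.29 TPM (8.99 ± 2.40, SD) and Zic5 had 7.32 and 7.83 TPM (7.58 ± 0.36, SD). Zic4 led in replicate 1 and Zic5 in replicate 2, so these genes were no longer in a fixed order. Zic2 had 5.07 and 4.51 TPM (4.79 ± 0.40, SD), below the unchanged Zic1 values in each library. Zic4 was 5.23 and 4.40 times Zic2 by gene TPM and 2.11 and 1.62 times by protein-coding transcripts.

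The ratios within the loci came closer to each other too. Zic1 reached 0.522 and 0.761 of Zic4 by protein-coding TPM (0.641 ± 0.170, SD), and Zic2 reached 0.693 and 0.576 of Zic5 (0.634 ± 0.082, SD). The difference of the log2 ratios was -0.41 in replicate 1 and 0.40 in replicate 2, opposite in sign, with a mean close to 0. Which partner was higher did not change: Zic4 stayed above Zic1, and Zic5 above Zic2, in both libraries. By expected counts with no length correction, Zic1 over Zic4 was 0.461 and 0.589 and Zic2 over Zic5 was 0.329 and 0.271, which made the chromosome 14 pair the more unequal. The summed protein-coding TPM was 16.2 and 12.8 for Zic1 and Zic4, against 12.4 and 12.3 for Zic2 and Zic5. The restriction to protein-coding transcripts was chosen after the transcript values were seen.

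**Figure D3:**
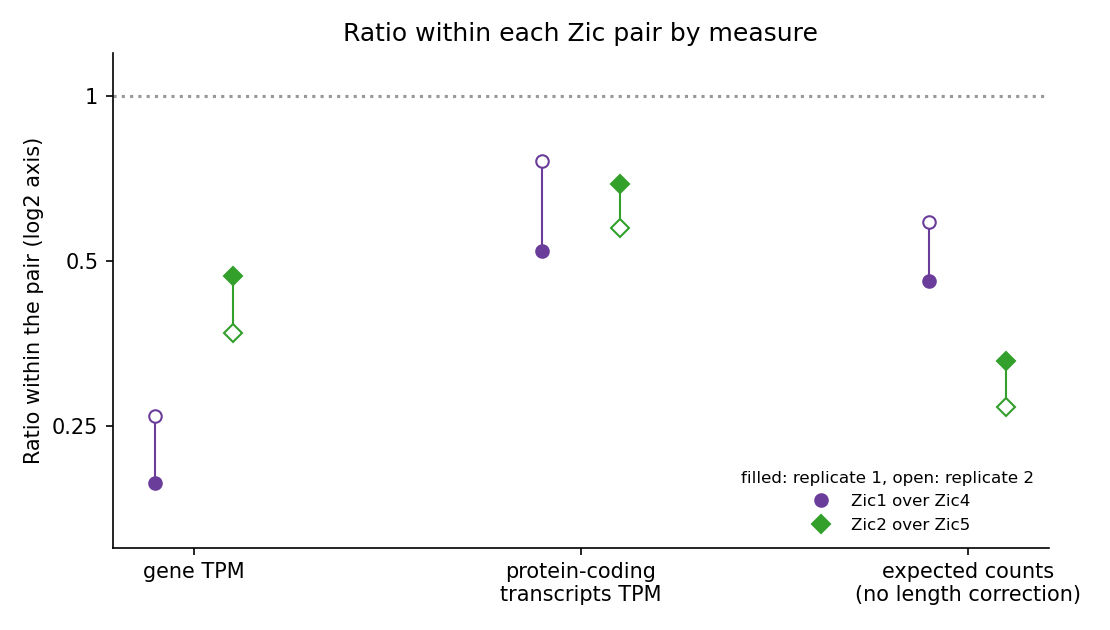
Ratio within each pair on a log2 axis, Zic1 over Zic4 (circles) and Zic2 over Zic5 (diamonds), by gene TPM, by protein-coding transcripts and by expected counts, with replicate 1 filled and replicate 2 open. All ratios lay below 1, and the pairs were apart by gene TPM, with Zic1 over Zic4 at 0.197 and 0.261, but overlapped by protein-coding transcripts.

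The transcripts of the Zic1 and Zic4 locus start at many places. The first base of Zic4-201 lies 9748 bp downstream of that of Zic4-211 and within the same gene. Zic4-208 starts inside Zic1, on the other strand, and is the only Zic4 transcript that shares exonic bases with Zic1, 60 bp in all. It had 0.30 TPM in replicate 1 and was listed at 0 in replicate 2, so the overlap bore on almost no Zic4 signal. Gm37477, an unclassified gene on the opposite strand inside Zic4, had 3.07 and 2.92 TPM, and 52.9% of its 884 exonic bp coincide with Zic4-211. Whether strand was kept is not given in the sources used here, and without it reads from the 468 bp that Gm37477 and Zic4-211 share cannot be told apart.

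**Figure D4:**
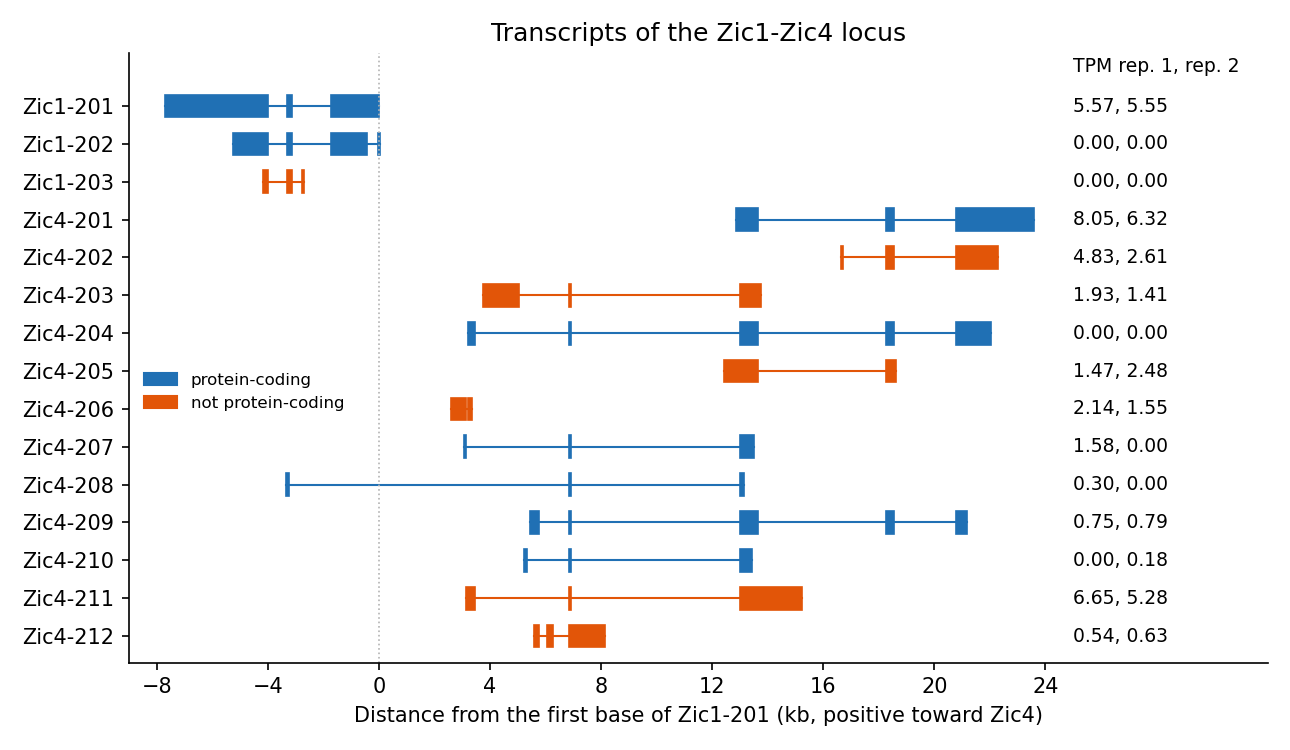
Exons (boxes) of the Zic1 and Zic4 transcripts by distance in kb from the first base of Zic1-201, protein-coding in blue and others in orange, with the TPM of each transcript in replicates 1 and 2 at the right. Zic4-201, with 8.05 and 6.32 TPM, and Zic4-211, with 6.65 and 5.28 TPM, start 9748 bp apart.

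Sequence around the starts is shown to compare base composition and motifs between genes. Windows of 300 bases around the start are given from RefSeq on GRCm38.p6 for 3 of the 4 genes: Zic1 at chr9:91365719-91366018 (minus strand), Zic4 at chr9:91368722-91369021 (plus strand) and Zic5 at chr14:122465609-122465908 (minus strand). Of 5 motifs searched on both strands, capitals mark matches to the CCAAT box (CCAAT), to the GC box (GGGCGG) and to a motif of the Zic and Gli type (ACCACCC), and no matches overlapped.
Zic1: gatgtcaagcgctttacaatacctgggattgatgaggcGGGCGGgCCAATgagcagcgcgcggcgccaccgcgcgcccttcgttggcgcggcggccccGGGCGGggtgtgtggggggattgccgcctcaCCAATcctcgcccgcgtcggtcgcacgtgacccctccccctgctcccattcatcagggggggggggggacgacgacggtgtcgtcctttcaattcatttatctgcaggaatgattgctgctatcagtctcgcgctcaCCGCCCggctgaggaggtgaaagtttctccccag
Zic4: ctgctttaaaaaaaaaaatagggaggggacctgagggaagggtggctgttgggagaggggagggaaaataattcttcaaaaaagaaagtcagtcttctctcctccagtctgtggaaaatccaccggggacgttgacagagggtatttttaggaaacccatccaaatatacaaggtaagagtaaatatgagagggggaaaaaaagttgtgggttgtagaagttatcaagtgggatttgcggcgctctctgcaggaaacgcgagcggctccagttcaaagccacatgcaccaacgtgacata
Zic5: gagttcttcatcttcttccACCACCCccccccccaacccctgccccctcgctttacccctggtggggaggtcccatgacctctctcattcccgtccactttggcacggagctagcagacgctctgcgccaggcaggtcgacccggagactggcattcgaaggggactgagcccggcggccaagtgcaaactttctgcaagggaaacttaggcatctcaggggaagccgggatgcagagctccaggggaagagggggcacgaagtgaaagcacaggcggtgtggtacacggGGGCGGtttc
The Zic1 window was rich in G and C (65.3%), with 31 CpG dinucleotides, and so was the Zic5 window (62.7%, 15 CpG). The Zic4 window had 46.0% G and C and 8 CpG, beside medians over 32851 promoters of 52.7% and 7 CpG. Of these promoters, 82.3% had less G and C than the Zic1 window, 76.9% than the Zic5 window and 25.1% than the Zic4 window. Zic1 held 2 CCAAT boxes and 3 GC boxes, Zic5 held 1 GC box and 1 ACCACCC motif, and Zic4 held none. The other motifs searched, the TATA box (TATAAA) and a Zic-type motif (CAGCAGG), matched in none of the 3 windows. Of all promoters of this length, 37.4% held the CCAAT box, 35.7% the GC box, 4.61% the ACCACCC motif, 13.6% the TATA box and 10.5% the CAGCAGG motif. The windows also differed in how much of the gene's RNA they cover. Transcripts starting inside the window held 100% of the Zic1 counts and 93.1 and 92.0% of the Zic5 counts, but 26.5 and 25.6% of the Zic4 counts, since Zic4-201 starts elsewhere.

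Divergent neighbours elsewhere in the genome gave a scale for the inequality of the pairs. Over 1565 pairs of protein-coding genes on opposite strands, with starts facing away at most 20 kb apart and both at 1 TPM or more, the median absolute log2 TPM ratio was 1.80, with quartiles of 0.83 and 3.11. Starts here are the outermost ones of each annotated gene, and partners may overlap at them. Zic1 and Zic4, with such starts 3397 bp apart, had 2.34 and 1.94 (2.14 ± 0.29, SD), and 57.6% of pairs were less unequal. This Zic4 start is that of Zic4-208, inside Zic1, with 0.30 TPM in replicate 1 and 0 in replicate 2. Zic4-211 and Zic4-201 start 3.126 and 12.874 kb from the first base of Zic1-201, outside Zic1. Zic5 and Zic2, with starts 9758 bp apart, had 1.09 and 1.43 (1.26 ± 0.24, SD), and 35.7% of pairs were less unequal. By gene TPM, both Zic pairs lay between the quartiles, on opposite sides of the median. By protein-coding transcripts the pairs were not apart, with mean ratios of 0.641 for Zic1 over Zic4 and 0.634 for Zic2 over Zic5. Divergent neighbours were not ranked by that measure, so the places given here hold for gene TPM only.

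**Figure D5:**
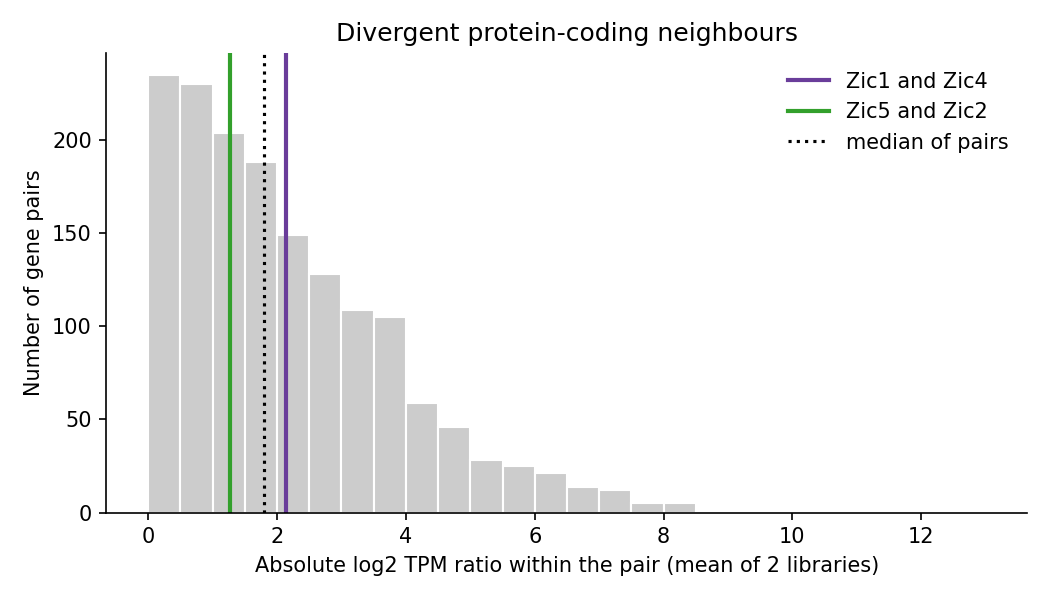
Number of divergent protein-coding gene pairs by the absolute log2 TPM ratio of the partners (mean of 2 libraries), with vertical lines for the Zic pairs and a dotted line for the median of 1565 pairs. By gene TPM, Zic1 and Zic4, at 2.14, lay above the median of 1.80, and Zic5 and Zic2, at 1.26, below it.

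The surroundings of the loci differed. Within 100 kb of Zic1 and Zic4 there were 7 other genes with rows in the tables, none protein-coding, and 1 of them, Gm37477, was detected. Around Zic2 and Zic5 there were 7 others, 4 of them protein-coding, and 3 were detected. Clybl, a mitochondrial citramalyl-CoA lyase, had 23.0 and 24.5 TPM, and Pcca, a subunit of the mitochondrial propionyl-CoA carboxylase, had 25.7 and 25.9 TPM. Both were above Zic2 and Zic5 in each library. The non-coding gene 2610035F20Rik, which starts 236 bp from Zic2 on the opposite strand, had 1.83 and 1.67 TPM. It was lower than Zic2, and shared no exonic bases with it.

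Between the libraries, none of the 4 Zic genes was called different. Calls came from a two-sided exact binomial test on rounded counts over 14768 genes with Benjamini-Hochberg adjustment, and needed an adjusted p below 0.05 and 2-fold. This compares 2 libraries and covers counting error only. By that rule 0 of 4 Zic genes were called, and 2.37% of all genes tested were. At an adjusted p below 0.05 and any size 2 of 4 passed, Zic4 and Zic5, against 53.2% of all genes tested. Zic4 was 0.823-fold in replicate 2 over replicate 1, a log2 ratio of -0.28 with a counting interval of -0.38 to -0.19 (exact binomial, adjusted p = 1.78e-08). Zic5 had a log2 ratio of 0.19, with an interval of 0.07 to 0.31 (exact binomial, adjusted p = 0.00372). The partner genes Zic1, at 0.07 (-0.06 to 0.20, exact binomial, adjusted p = 0.383), and Zic2, at -0.09 (-0.31 to 0.12, exact binomial, adjusted p = 0.515), did not pass. For Zic1 the sign depended on the scale, with a log2 ratio of TPM of -0.0052. For Zic4 the size did, with a log2 ratio of TPM of -0.41, outside its counting interval. Of all genes tested, 72.0% had a smaller absolute log2 ratio than Zic4, 56.5% than Zic5, 30.8% than Zic2 and 24.0% than Zic1.

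Relatives and reported partners of the Zic factors were read beside them. The Gli and Glis genes, whose zinc fingers resemble those of Zic, numbered 6, all detected, with medians of 7.12 and 7.75 TPM. Gli3, the main repressor of Hedgehog targets, had 29.0 and 28.4 TPM, above Zic4 in both libraries. Gli2, the main activator, had 8.32 and 7.54 TPM, and Gli1, itself a Hedgehog target, had 5.92 and 7.97 TPM, both in the range of Zic1 to Zic5. Glis2 had 20.1 and 19.3 TPM and Glis1, the lowest, 1.82 and 1.85 TPM. None of the 6 was called between the libraries, but only 2.37% of all genes tested were, so a list this short says little.

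Hedgehog and ventral midline genes matter here through the role of human ZIC2 in holoprosencephaly. All 17 were detected, with medians of 10.8 and 13.3 TPM, and 0 of 17 were called, against 2.37% of all genes tested. Shh, the ventral midline ligand, had 6.40 and 6.52 TPM, a little above Zic1 and Zic2. The holoprosencephaly genes Tgif1, a transcriptional repressor, and Six3, a forebrain factor, had 61.7 and 62.6 TPM, and 6.70 and 3.41 TPM. Of 13 genes of the canonical Wnt pathway 13 were detected, with medians of 14.8 and 14.9 TPM. Of these 13, 0 were called, against the same 2.37%. Among them Ctnnb1, which encodes beta-catenin, had 487 and 438 TPM, and Tcf7l2, whose product human ZIC2 has been reported to bind, had 211 and 151 TPM.

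The dorsal genes, made where Zic RNAs are best known, numbered 20, of which 18 were detected, with medians of 8.65 and 13.1 TPM. Msx1, a roof plate homeobox gene, had 126 and 131 TPM, Wnt1, a dorsal midline ligand, had 18.6 and 20.4 TPM, and Pax3, a dorsal patterning factor, had 29.0 and 28.6 TPM. None of the 3 was called. Of 19 tested, 3 were higher in replicate 2, which held for 0.664% of all genes, and none lower, against 1.71% of all genes. These were Atoh1, a rhombic lip gene that Zic1 is reported to repress in chick, at 4.07 TPM in replicate 2 and 0.75 TPM in replicate 1, and Msx3 and Rspo3, named after their values were seen, at 14.1 and 13.4 TPM in replicate 2 and 4.30 and 6.71 TPM in replicate 1. The median log2 ratio of the 19 was 0.32, against 1.59e-06 over all genes tested, and no Zic gene reached that value. The list was not uniform: Pax7 (-0.34), Rgma (-0.29), Msx2 (-0.26) and Lmx1a (-0.23) had log2 ratios below 0, and the rest above 0. These signs were also read after the values were seen.

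Of 8 genes reported as partners or targets of Zic factors 7 were detected. Apoe, whose human promoter has been reported to respond to ZIC1 and ZIC2, had 168 and 141 TPM. Ephb1, the guidance receptor linked to Zic2 in mouse retinal axons, had 12.5 and 8.07 TPM, and Mdfi, which encodes an inhibitor reported to bind Zic proteins, had 8.92 and 10.9 TPM. Apart from Atoh1 none was called, and of all genes tested 2.37% were. Of 13 neural plate border and crest genes 11 were detected, with medians of 19.6 and 15.6 TPM. Of 12 tested 1, Sox10, was higher in replicate 2, against 0.664% of all genes tested. Sox9, which is also made by other cells of the head, had 91.2 and 52.5 TPM, and Foxd3, an early crest factor, had 0.05 and 0.20 TPM.

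Marker genes of other cell types were set beside the library differences of Zic4 and Zic5, and their part in those was not tested. Of 9 genes of newborn neurons 9 were detected, and these had a median log2 ratio of -0.58 in replicate 2 over replicate 1, and 1 of 9, Dcx, was called lower, against 1.71% of all genes tested. Neuroepithelial genes had a median log2 ratio of -0.11 and mesenchymal genes of 0.04. Of them 0 of 11 and 0 of 14 were called, against 2.37% of all genes tested. The 4 most abundant mesenchymal genes had log2 ratios below 0, with Col1a1 at -0.97, Col1a2 at -0.65, Col3a1 at -0.37 and Lum at -0.33. Among the rest, Foxc1, Foxc2, Foxd1, Twist1, Twist2, Prrx1, Prrx2 and Alx4 had ratios above 0, and Pdgfra and Tbx18 below 0. Summed over that list, replicate 2 had 622 TPM, against 859 TPM for replicate 1. Of the forebrain and eye genes 3 of 7 tested were higher in replicate 2, against 0.664% of all genes tested. Sox10, Dcx, the signs of the other mesenchymal genes and the forebrain and eye values were likewise read after their values were seen.

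Genes with levels like those of a Zic gene in both libraries were numerous, and closeness over 2 libraries is a weak measure of likeness. By Euclidean distance of log2(TPM + 1), Zic1 was nearest to Arhgef15 (0.0069) and Slc35g2 (0.014), with 70 protein-coding genes within 0.1. Zic4 was nearest to Frmd4b (0.0039) and Vps39 (0.015), with 49 within 0.1. Zic2 was nearest to Dip2a (0.0087) and Mbd2 (0.027), with 75 within 0.1, and Zic5 to Riox1 and Gpd1l (0.016 each), with 50 within 0.1. No Zic gene was among the nearest of another.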

How the data were processed

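Total RNA of 2 pools of embryonic day 10.5 midbrain was sequenced from 10 ng of input, per the labels. The labels also link the manual of a kit that primes on poly(A), so how the RNA was primed is not settled here. Its bearing on the TPM ratios and transcript shares was not tested. Per the file headers, gene and transcript tables are on mm10 with GENCODE M4 annotation. Aligner, quantifier and strand setting are not given in the sources. The deposited expected counts are estimates that split reads among transcripts, hence decimals. The deposited TPM and FPKM values are counts corrected for effective length, each scaled within a library, so a change in abundant genes shifts all others. The deposited credible bounds, a signal on the TPM scale, have no stated level, and the deposited isoform percent is a transcript's share of its gene's TPM.

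Names, types and positions came from GENCODE M21, whose GRCm38 assembly is mm10. Of 43346 gene identifiers 884 had no match, and all 19 Zic transcript lengths were equal in both annotations. Ratios, sums and SDs were computed from the deposited TPM. To compare replicate 2 with replicate 1, expected counts were rounded to whole numbers, scaled by TMM (edgeR 4.0.16, R 4.3.3) and compared by a two-sided exact binomial test (scipy 1.17.1) over the 14768 genes averaging 1 TPM or more, with Benjamini-Hochberg adjustment and 0.5 added to each count in ratios. Counting intervals are at 95%; PCR copies are not independent molecules, so they cover counting error only. The replicates are called biological in the labels, and nothing says how embryos were divided between pools. Tested on simulated counts for replicate 2 over replicate 1 across 14768 genes, 97 of 100 genes altered 3-fold and 97 of 100 altered 6-fold passed, and 0 of 14568 others did. The simulated counts were Poisson, with counting error only and no spread between pools. They therefore cannot show how often the rule calls genes that differ only by such a spread.

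The members and the 16 gene lists (149 genes, 124 detected, 17 in several lists) were chosen with earlier results of these data known. Named genes were the 4 members, genes within 100 kb of them, up to 4 highest and 2 lowest of each list, 10 developmental regulators and the 2 nearest genes per member; others are marked. The erythroid, endothelial and rhombic lip lists had 8 of 8, 8 of 8 and 5 of 7 genes detected. Alternatives were FPKM, posterior mean TPM, counts, protein-coding transcripts, DESeq2 1.42.0 size factors and other filters, folds and distances. Python 3.11.15 with pandas 2.3.3, numpy 2.4.6 and matplotlib 3.10.9 was used.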

Additional observations from a re-analysis of the deposited data

How the results depend on the processing

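Of the alternatives to the values given above, 96 moved a value by less than the spread between replicates, a count by at most 1.5 times, or changed no call, 25 moved it further, 1 reversed it, and 2, the library differences of Zic4 and Zic5 with no fold required, newly passed. Among the 96, the log2 library ratio of Zic1, which did not pass, was -0.0052 by TPM, opposite in sign. Over all protein-coding genes in place of detected ones, 53.7, 73.8, 52.9 and 63.2% were below Zic1, Zic4, Zic2 and Zic5. By expected counts, the difference of the log2 ratios of the pairs reversed to 0.80, Zic1 over Zic4 was 0.525 and Zic2 over Zic5 was 0.300. By protein-coding transcripts, chosen after seeing the data, Zic4 was 8.99 TPM, Zic5 7.58 TPM, Zic1 over Zic4 0.641, Zic2 over Zic5 0.634, the difference of log2 ratios -0.0034, the log2 ratio of the summed pairs 0.22 and Zic4 over Zic2 1.86. By posterior mean TPM, Zic1 was 5.68 TPM, and Zic1-201, Zic4-201 and Zic2-201 took 94.9, 28.1 and 92.6% of their genes. As a share of counts, Zic4-201, Zic2-201 and Zic5-201 took 46.0, 98.1 and 92.6%. The genes called between the libraries numbered 350, and 1085 with at least 1 count in either library, 105 at a mean of 5 TPM, 1140 at 1.5-fold and 7857 with no fold required; the filters and folds differ by construction. With both partners at 5 TPM or more, 1197 divergent pairs had a median of 1.49, and Zic2, at 4.83 TPM in replicate 2, fell out. Leaving out either replicate moved no level or ratio of the Zic genes by more than its SD, which with 2 libraries holds by construction. No paired analysis was possible because there is 1 group. Unless stated, the cause of a shift was not tested. With 2 libraries, the spread between pools is poorly known, and Zic2, with 355 and 362 counts, had the fewest reads.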
